A study of Mus musculus with 8 samples.

Results

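The endogenous opioid system of the hippocampus was described through 7 genes: the receptor genes Oprl1, Oprd1, Oprk1 and Oprm1, and the peptide precursor genes Penk, Pdyn and Pnoc. They were taken by name from the 31417 genes of the count table, and the set was chosen by the level of Oprl1, which was lower in Dclk3 knockout (KO) mice in these same counts. The difference of Oprl1 between genotypes is therefore given as a description with no test of its own. Messenger RNA was sequenced from bulk hippocampus of Dclk3 KO mice and of wild-type (WT) control mice, all aged 12 months, with 4 libraries of each genotype and 1 hippocampus per library. Dclk3 encodes a doublecortin-like kinase found mainly in the brain. The targeted allele, the strain, the sex and the number of animals are not stated in the labels. The p-values therefore set a difference between genotypes against the spread between these libraries, part of which may be technical.

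Opioid peptides are cut from larger precursor proteins at pairs of basic residues and act on receptors that couple to inhibitory (Gi/o) G proteins. These receptors lower cyclic AMP, open inwardly rectifying potassium channels and close presynaptic calcium channels, which quiets the neuron or its terminals. Penk gives the enkephalins, which act on the delta receptor (Oprd1) and the mu receptor (Oprm1), Pdyn gives the dynorphins, which act on the kappa receptor (Oprk1), and Pnoc gives nociceptin, the ligand of the nociceptin receptor (Oprl1). In the rodent hippocampus dynorphin is known from the mossy fibres of dentate granule cells, and mu receptors and nociceptin are known mainly from GABA interneurons.

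What the 3 precursors share is written in their coding sequences, which are shown from the start of the peptides. Enkephalins and dynorphins begin with tyrosine, glycine, glycine and phenylalanine, and nociceptin begins with phenylalanine in place of the tyrosine. The 12 bases that encode these residues (in frame and on the coding strand, TAC, TAT, TTC or TTT, then GGN and GGN, then TTC or TTT) occurred 7 times in Penk, 3 times in Pdyn and 1 time in Pnoc. All 11 stretches followed a pair of basic codons. Among 21501 complete mouse coding sequences, 1 per gene, 175 (0.814%) held at least 1 match and 4 held 3 or more. The other 2 of these 4 were keratin-associated protein genes, Krtap19-2 with 8 matches, more than Penk, and Krtap19-4 with 3. Capitals mark the 12 matched bases in the sequences from the GENCODE M21 transcripts (GRCm38, all on the minus strand), and lower case marks the bases that follow. The stretch of Pdyn copy 3 starts with dynorphin B and runs past the end of that peptide.
Penk copy 1 (a Met-enkephalin, exon 2, chr4:4134334-4134348): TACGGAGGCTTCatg
Penk copy 6 (Leu-enkephalin, exon 2, chr4:4133941-4133955): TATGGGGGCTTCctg
Pdyn copy 2 (dynorphin A, exon 4, chr2:129688094-129688144): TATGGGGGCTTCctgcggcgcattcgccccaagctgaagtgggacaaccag
Pdyn copy 3 (start of dynorphin B, exon 4, chr2:129688037-129688087): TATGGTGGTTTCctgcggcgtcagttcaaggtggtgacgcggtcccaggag
Pnoc copy 1 (nociceptin, exon 3, chr14:65404842-65404892): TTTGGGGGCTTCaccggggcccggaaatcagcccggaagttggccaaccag
In Penk the codon after the match was methionine in 6 copies and leucine in 1, in Pdyn it was leucine in all 3 copies, and in Pnoc it was threonine. The coding sequences of the receptors shared 61.9% (Oprl1 with Oprk1) to 70.4% (Oprm1 with Oprd1) of aligned bases with each other, where a receptor and a precursor shared 54.4% to 60.2%. The lowest receptor pair thus lay close to the highest pair of a receptor and a precursor. The longest run of identical bases between the coding sequences of any pair of the 7 genes was 25 bases, between Oprl1 and Oprk1.

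Libraries held 29301974 to 36552757 counts. The counts were scaled to library size as CPM with TMM factors, and KO was compared with WT by edgeR's quasi-likelihood test over the 16228 genes that passed the filter on low counts. All 7 members passed it. Dclk3, which checks the genotype labels, stood at 8.19, 9.29, 5.92 and 7.46 CPM in KO replicates 1 to 4, against 23.0, 39.3, 20.8 and 23.5 CPM in WT replicates 1 to 4. Every listed marker of dentate granule, CA1, and CA2 and CA3 cells averaged at least 1 CPM. Markers of the choroid plexus, a neighbouring tissue, summed to 182 to 3394 CPM in KO libraries and 67.9 to 2174 CPM in WT libraries. At an adjusted p under 0.05 edgeR called 0 genes, which is 0% of those tested, and so none of the 7 members. DESeq2 called 5 genes and limma-voom 0, again with no member among them. For Dclk3 itself the log2 difference was -1.79 with an SE of 0.22, and edgeR gave it an adjusted p = 0.234. Before adjustment, 1000 genes (6.16%) had a p under 0.05, with 357 (2.20%) lower and 643 (3.96%) higher in KO. Oprl1 and Oprd1 were among the lower ones, Oprl1 by the choice of the set.

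Per length of exon, Penk was the most abundant of the 7 genes and Oprm1 the least. Over the 8 libraries the level in CPM per kilobase of exon was 19.1 ± 2.12 for Penk, 15.6 ± 1.88 for Oprl1, 5.51 ± 1.22 for Pdyn, 3.49 ± 0.285 for Pnoc, 3.06 ± 0.523 for Oprd1, 0.314 ± 0.0466 for Oprk1 and 0.178 ± 0.0556 for Oprm1 (mean ± SD, n = 8). Oprl1 was thus the leading receptor transcript. It made up 81.3% ± 1.52 of the length-scaled receptor sum in KO libraries and 81.6% ± 1.54 in WT libraries (SD, n = 4 each). Oprd1 made up 16.0% ± 1.46 in KO and 15.9% ± 1.76 in WT. Oprk1 made up 1.81% ± 0.238 in KO and 1.51% ± 0.259 in WT, and Oprm1 made up 0.887% ± 0.288 in KO and 0.964% ± 0.237 in WT. Among the precursors Penk led, with 66.5% ± 3.66 of their length-scaled sum in KO and 69.2% ± 2.34 in WT.

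2 steps in this order were clear of the spread between libraries: every library had Oprl1 above the highest Pdyn value, a 2.83-fold step of the means, and Oprd1 above the highest Oprk1 value, a 9.76-fold step. Ranges overlapped between Penk and Oprl1, between Pdyn and Pnoc, between Pnoc and Oprd1, and between Oprk1 and Oprm1. Within a library, Penk exceeded Oprl1 in 4 of 4 KO libraries and in 3 of 4 WT libraries. The levels of Oprk1 and Oprm1 depended on the length used: with the longest coding transcript in place of all exons they were 0.615 and 0.593 CPM per kilobase, and the order of the 7 genes was the same. With that length the step between Oprd1 and Oprk1 was 4.99-fold, Oprd1 made up 12.9% ± 1.22 of the receptor sum in KO and 12.8% ± 1.496 in WT, and Oprm1 made up 2.37% ± 0.755 in KO and 2.57% ± 0.622 in WT.

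**Figure D1:**
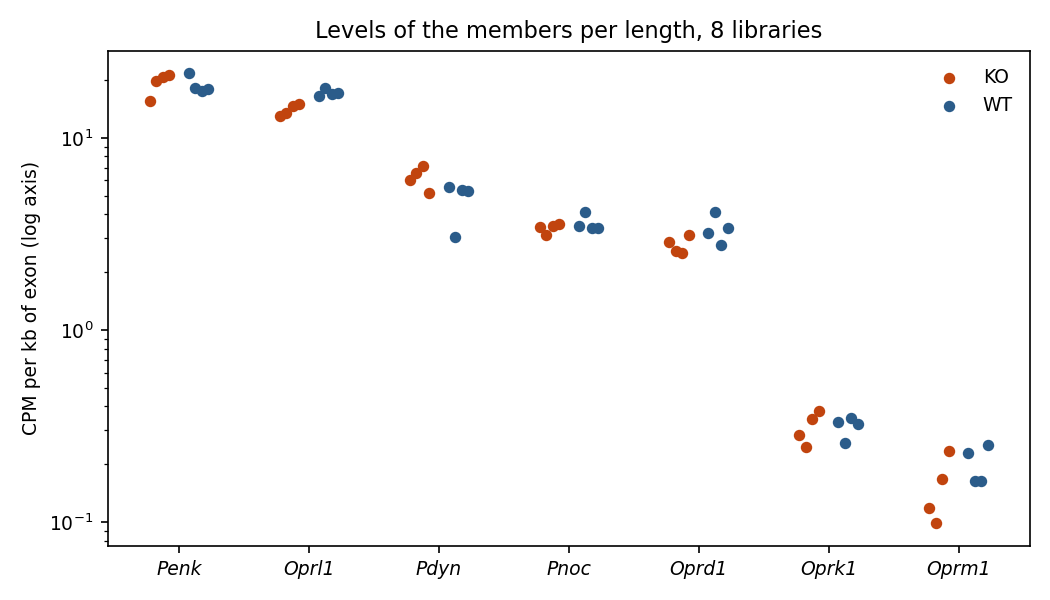
Level of each member in CPM per kilobase of exon on a log axis, with 1 point per library (KO left, WT right within each gene) and genes ordered by their mean. Penk and Oprl1 lie highest, at means of 19.1 and 15.6, and Oprk1 and Oprm1 lie below 0.4 in every library.

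Oprl1 (ENSMUSG00000027584, mm10 chr2:181715016-181720985, plus strand, protein coding) had 1781, 1534, 1580 and 1751 counts in KO replicates 1 to 4, against 2220, 2197, 1979 and 1894 counts in WT replicates 1 to 4. Scaled to CPM these were 48.5, 50.7, 54.7 and 56.0 in KO, against 61.8, 68.5, 63.6 and 63.9 in WT. The highest KO library lay below the lowest WT library, so the genotypes did not overlap. On the log2 scale Oprl1 differed by -0.30 (SE 0.06), which is 18.6% less in KO. It was the 1 member of 7 whose genotypes did not overlap, where 3.80% of all genes tested had no overlap in either direction and 1.92% had KO below WT. Since Oprl1 was chosen for this difference, nothing is read from that count. The difference lay between -0.33 (without KO replicate 4) and -0.26 (without KO replicate 1) in fits that left out 1 library. Oprl1 was also among the steadier members within a genotype, with a coefficient of variation of 6.66% in KO and 4.42% in WT.

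**Figure D2:**
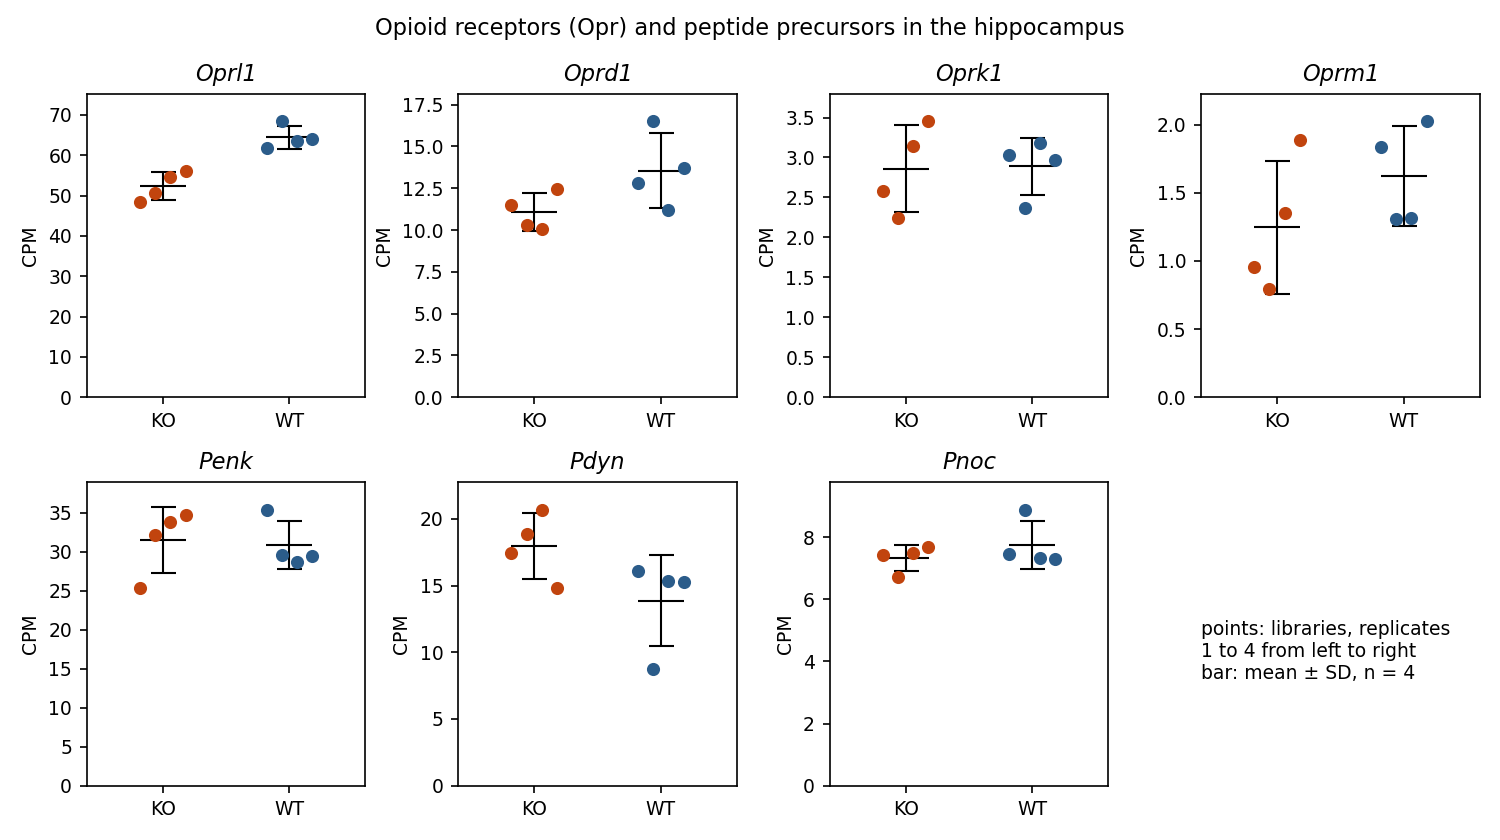
CPM of each member in each library, with KO left of WT, replicates 1 to 4 from left to right, and the mean ± SD (n = 4) as a bar. Only in the Oprl1 panel do all KO points (48.5 to 56.0) lie apart from all WT points (61.8 to 68.5).

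The genes around Oprl1 were looked at as well. Rgs19, a regulator that speeds up the shutdown of Gi/o proteins, ends 21039 bases before Oprl1 on the opposite strand. It stood at 17.5 ± 0.864 CPM in KO and 18.6 ± 1.02 CPM in WT (log2 fold change -0.09, SE 0.07; edgeR adjusted p = 0.824). Myt1, a zinc finger gene of the neural lineage 42347 bases beyond Oprl1, stood at 17.4 ± 1.26 CPM in KO and 16.8 ± 1.12 CPM in WT (log2 fold change 0.05, SE 0.08; edgeR adjusted p = 0.908). Of the nearer neighbours, the pseudogene Gm14489 had no count in any library and Lkaaear1 was not analysed here. The exons of Oprl1 overlap no other annotated gene.

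Pnoc, which encodes the ligand of Oprl1 (ENSMUSG00000045731, mm10 chr14:65400673-65425472, minus strand), had 7.43, 6.71, 7.47 and 7.68 CPM in KO libraries, against 7.46, 8.88, 7.32 and 7.29 CPM in WT libraries. The KO values fell within or just below the WT range, with WT replicate 2 above all others. The log2 fold change was -0.08 (SE 0.10, 95% interval -0.31 to 0.15; edgeR adjusted p = 0.896). Leaving out WT replicate 2 moved it to -0.0042, and leaving out KO replicate 2 moved it to -0.039. The length-scaled ratio of Pnoc to Oprl1 was 0.267, 0.230, 0.238 and 0.239 in KO libraries, against 0.210, 0.226, 0.200 and 0.198 in WT libraries. All KO ratios lay above all WT ratios, which contains the difference of Oprl1 and was not tested.

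The delta receptor gene Oprd1 (ENSMUSG00000050511, mm10 chr4:132110726-132144486, minus strand) was the other receptor with well over 200 counts in every library. It had 11.5, 10.3, 10.1 and 12.5 CPM in KO libraries, against 12.8, 16.5, 11.2 and 13.7 CPM in WT libraries. WT replicate 3 lay inside the KO range, so the genotypes overlapped, and WT replicate 2 lay highest. The log2 fold change was -0.29 (SE 0.12, 95% interval -0.56 to -0.014), close in size to that of Oprl1, with an unadjusted p of 0.0411 in edgeR and an adjusted p = 0.796. Without WT replicate 2 the log2 fold change was -0.18 (edgeR adjusted p = 0.966).

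The kappa receptor gene Oprk1 (ENSMUSG00000025905, mm10 chr1:5588466-5606131, plus strand) had 2.58, 2.25, 3.15 and 3.46 CPM in KO libraries, against 3.03, 2.37, 3.18 and 2.97 CPM in WT libraries. These are 68 to 108 counts in KO and 76 to 109 counts in WT, and the ranges overlapped throughout. The log2 fold change was -0.016 (SE 0.17, 95% interval -0.39 to 0.36; edgeR adjusted p = 0.991), and its sign turned in 4 of the 8 fits that left out a library. A change by as much as 1.29-fold upwards or to 0.761 of the WT level is within the interval.

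The mu receptor gene Oprm1 (ENSMUSG00000000766, mm10 chr10:6758506-7038198, plus strand) rested on few reads: 35, 24, 39 and 59 counts in KO libraries, against 66, 42, 41 and 60 counts in WT libraries. The exact Poisson interval (95%) of the lowest, 24 counts, ran from 15.4 to 35.7 counts, and such intervals cover counting error only. In CPM the values were 0.952, 0.794, 1.35 and 1.89 in KO, against 1.84, 1.31, 1.32 and 2.03 in WT, and the genotypes overlapped. The log2 fold change was -0.38 (SE 0.28, 95% interval -1.01 to 0.24; edgeR adjusted p = 0.824). It became -0.66 when KO replicate 4 was left out, -0.22 when KO replicate 2 was left out, and -0.65 by limma-voom with quality weights. Ipcef1, a gene on the opposite strand, shares 96 exon bases with Oprm1 and stood at 48.8 ± 10.3 CPM in KO and 43.7 ± 2.38 CPM in WT. Whether counting used strand is not stated in the labels, so part of the Oprm1 counts could be reads of Ipcef1, which was not tested.

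Among the precursors, Penk (ENSMUSG00000045573, mm10 chr4:4133531-4138819, minus strand) stood at 25.3, 32.1, 33.8 and 34.7 CPM in KO libraries, against 35.4, 29.6, 28.7 and 29.5 CPM in WT libraries. KO replicate 1 was the lowest library and WT replicate 1 the highest, and the other libraries of both genotypes lay between 28.7 and 34.7 CPM. The log2 fold change was 0.03 (SE 0.11, 95% interval -0.21 to 0.26; edgeR adjusted p = 0.968), and its sign turned when KO replicate 3 (-0.0079) or KO replicate 4 (-0.023) was left out. The noncoding A830012C17Rik shares 233 exon bases with Penk on the opposite strand but averaged 0.0468 CPM in KO and 0.0726 CPM in WT.

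Pdyn (ENSMUSG00000027400, mm10 chr2:129686565-129699844, minus strand) was the member with the largest positive difference. Its level was 17.4, 18.8, 20.7 and 14.8 CPM in KO libraries, against 16.1, 8.76, 15.4 and 15.3 CPM in WT libraries. 3 KO libraries lay above every WT library, KO replicate 4 lay inside the WT range, and WT replicate 2 stood far below the rest. The log2 fold change was 0.37 (SE 0.18, 95% interval -0.036 to 0.78; edgeR adjusted p = 0.796). Without WT replicate 2 it was 0.21 (edgeR adjusted p = 0.966).

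**Figure D3:**
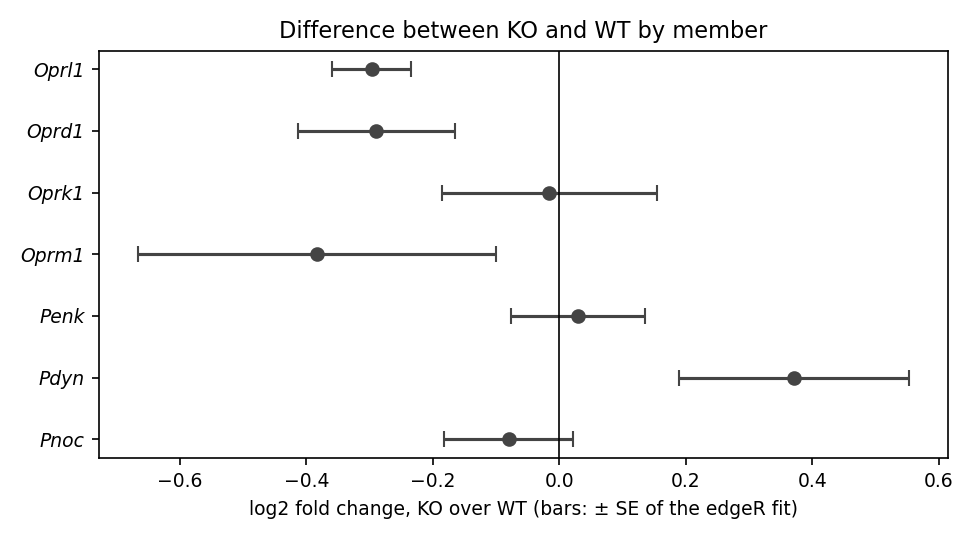
Log2 fold change of KO over WT for each member from the edgeR fit, with bars of ± 1 SE. Pdyn lies at 0.37, Oprl1, Oprd1 and Oprm1 lie at -0.30, -0.29 and -0.38, and Oprm1 has the widest bar (SE 0.28).

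Of the 7 members 5 had a log2 fold change below 0 and 2 above 0, with a median of -0.08. Oprl1 is among the 5 because the set was chosen by it, and of the 6 others 4 lay below 0, with a median of -0.05. Of all genes, 8095 of the 16228 tested lay below 0 and the median was 0.00. The ratio of a ligand to its receptor within a library does not depend on library scaling. The ratio of Pdyn to Oprk1 averaged 20.6 ± 5.32 in KO and 15.03 ± 2.29 in WT (SD, n = 4 each; exact two-sided permutation p = 0.114, adjusted p = 0.171). The ratio of Penk to Oprd1 averaged 7.05 ± 1.23 in KO and 5.71 ± 1.06 in WT (exact two-sided permutation p = 0.143, n = 4 each, adjusted p = 0.171). The ratio of Penk to Oprm1 averaged 136 ± 45.6 in KO and 96.3 ± 17.9 in WT (exact two-sided permutation p = 0.171, n = 4 each, adjusted p = 0.171). The size of a ratio depends on the exon length used: with the longest transcript, Penk to Oprm1 averaged 46.1 ± 15.5 in KO and 32.7 ± 6.09 in WT, and Pdyn to Oprk1 averaged 12.7 ± 3.29 in KO and 9.29 ± 1.42 in WT, while the difference between genotypes on the log2 scale does not depend on it. 3 ratios were tested, and 4 libraries against 4 allow no p below 0.0286. In the ratios of Pdyn to Oprk1 and of Penk to Oprm1, KO replicate 4 was the only KO library inside the WT range. Without it the log2 differences were 0.61 and 0.64 in place of 0.43 and 0.46. The unadjusted exact permutation p was then 0.0286 for both, the lowest that 3 KO against 4 WT libraries allow. This p follows from leaving out the 1 overlapping library, so nothing is read from it.

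Sums of cell type markers are given beside these values, and no marker passed the threshold. Markers of GABA interneurons, which are known to express Pnoc and Oprm1, summed to 1631 to 1682 CPM in KO libraries. In WT libraries they summed to 1702 to 1876 CPM. Of these 15 markers 11 had a log2 fold change below 0 and 4 above 0, with Lamp5 highest at 0.29. Gad1, the main GABA-synthesizing enzyme, stood at 376 ± 11.5 CPM in KO and 432 ± 22.6 CPM in WT (log2 fold change -0.20, SE 0.06; edgeR adjusted p = 0.796), and Gad2, the vesicle-associated form, stood at 190 ± 17.0 CPM in KO and 212 ± 19.2 CPM in WT (log2 fold change -0.16, SE 0.08; edgeR adjusted p = 0.796). Markers of dentate granule cells, which are known to make dynorphin, summed to 795 to 906 CPM in KO libraries and 696 to 789 CPM in WT libraries, and 10 of 10 lay above 0. For both lists the KO and WT sums did not overlap, for granule cells by a narrow margin (795 CPM against 789 CPM). Of single genes tested, 3.80% had no overlap in either direction. No such share was worked out for sums, and the sums were not tested. Granule marker sums in WT replicates 1 to 4 were 789, 720, 696 and 760 CPM, beside Pdyn at 16.1, 8.76, 15.4 and 15.3 CPM. In KO replicates 1 to 4 they were 817, 795, 826 and 906 CPM, beside Pdyn at 17.4, 18.8, 20.7 and 14.8 CPM. How Pdyn and these sums relate was not tested.

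Markers of striatal projection neurons, which express Penk and Pdyn strongly, summed to 171 to 184 CPM in KO libraries and 169 to 202 CPM in WT libraries, and 2 of the 10 (Gpr6 and Sh3rf2) averaged under 1 CPM. Habenular markers, from a nucleus rich in mu receptors, summed to 81.0 to 110 CPM in KO and 79.4 to 109 CPM in WT. The 4 habenular markers Gpr151, Chrna3, Chrnb4 and Pou4f1 averaged under 1 CPM, so the sum rests almost wholly on Nr4a2, Tac2 and Calb2. Calb2 is also in the list of GABA interneuron markers, so the sum is no measure of habenular tissue. For the other cell types the sums of KO and WT libraries overlapped. All 6 CA1 markers (median log2 fold change -0.11) and 7 of 9 CA2 and CA3 markers lay below 0. All 6 markers each of oligodendrocytes (median 0.16), choroid plexus (median 0.32), microglia (median 0.05) and endothelium (median 0.06), and 4 of 6 of astrocytes, lay above 0. The part of these cell types in the members' values was not tested. In bulk tissue, fewer cells of a type and less RNA per cell cannot be told apart.

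The other genes of opioid signalling were described from lists, and edgeR called 0 genes in each of them. The transducers lay slightly low: 12 of 16 Gi/o protein subunit genes had a log2 fold change below 0, with a median of -0.06. Gnao1, the most abundant G protein alpha subunit of the brain among them, stood at 827 ± 41.2 CPM in KO and 831 ± 49.6 CPM in WT. Gnb1, a beta subunit, stood at 604 ± 20.5 CPM in KO and 628 ± 17.6 CPM in WT. Gng2, a gamma subunit, stood at 359 ± 38.8 CPM in KO and 377 ± 14.01 CPM in WT.

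Of the effector channels and adenylyl cyclases, 9 of 15 lay below 0, with a median of -0.04 that turned to 0.0024 without KO replicate 1. The potassium channel subunit genes opened by G protein beta-gamma subunits differed in sign: Kcnj3 stood at 178 ± 19.99 CPM in KO and 184 ± 10.5 CPM in WT, and Kcnj6 at 44.9 ± 11.4 CPM in KO and 49.4 ± 7.70 CPM in WT. Kcnj9 stood at 98.8 ± 17.9 CPM in KO and 93.0 ± 18.3 CPM in WT. The cyclase gene Adcy1, which calcium and calmodulin stimulate, stood at 1602 ± 159 CPM in KO and 1387 ± 338 CPM in WT, and Adcy5 stood at 175 ± 13.7 CPM in KO and 178 ± 7.32 CPM in WT. Each of these differences was smaller than the sum of the SDs of the 2 genotypes.

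Of the regulators that end or redirect the signal, 12 of 21 lay below 0, with a median of -0.010 that turned to 0.0087 with upper quartile scaling and to 0.013 without WT replicate 1. Arrb1, which encodes a beta-arrestin, stood at 371 ± 16.8 CPM in KO and 374 ± 15.8 CPM in WT, and Grk2, a receptor kinase, at 250 ± 16.2 CPM in KO and 248 ± 18.1 CPM in WT. Rgs7bp, which anchors RGS proteins at the membrane, stood at 309 ± 33.5 CPM in KO and 324 ± 36.7 CPM in WT.

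Enzymes that make and break down the peptides had 12 of 20 genes below 0, with a median of -0.02, which leaving out KO replicate 4 moved to -0.090. Pcsk1, a convertase that cuts precursors at basic pairs, stood at 17.4 ± 1.05 CPM in KO and 20.6 ± 3.59 CPM in WT (log2 fold change -0.24, SE 0.12; edgeR adjusted p = 0.796). Pcsk2, the other main convertase of neurons, stood at 344 ± 33.1 CPM in KO and 367 ± 25.8 CPM in WT. Cpe, the carboxypeptidase that trims the cut ends, stood at 2554 ± 97.1 CPM in KO and 2659 ± 95.1 CPM in WT. Pam, the amidating enzyme, stood at 200 ± 6.98 CPM in KO and 201 ± 16.7 CPM in WT.

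5 genes with other ties to opioids had a median of -0.02, with 4 below 0, and a median of 0.0015 with upper quartile scaling and 0.0022 without WT replicate 1. Pomc, the precursor of beta-endorphin, stood at 1.05 ± 0.351 CPM in KO and 0.850 ± 0.130 CPM in WT. Ogfr, the opioid growth factor receptor, stood at 36.9 ± 2.06 CPM in KO and 37.4 ± 1.76 CPM in WT, and its relative Ogfrl1 at 239 ± 30.4 CPM in KO and 240 ± 23.2 CPM in WT.

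2 further lists set the members beside genes of the same kind. Of 30 other Gi/o-coupled receptor genes 27 were tested; 19 of these lay below 0, with a median of -0.09, which leaving out WT replicate 2 moved to -0.046. Cnr1, the cannabinoid receptor of interneuron terminals, stood at 278 ± 27.0 CPM in KO and 308 ± 14.7 CPM in WT (log2 fold change -0.15, SE 0.08; edgeR adjusted p = 0.796). The GABA-B subunit genes Gabbr1 and Gabbr2 had log2 fold changes of -0.04 (SE 0.06) and -0.10 (SE 0.07), and Adora1, the main adenosine receptor of the hippocampus, -0.09 (SE 0.09). Of 19 other neuropeptide and granin precursor genes 18 were tested; 15 lay below 0, with a median of -0.18, which was -0.089 without WT replicate 2. Sst stood at 148 ± 24.4 CPM in KO and 166 ± 24.8 CPM in WT, and Npy at 32.5 ± 2.89 CPM in KO and 36.7 ± 10.3 CPM in WT. The granin Chgb stood at 718 ± 138 CPM in KO and 779 ± 83.8 CPM in WT, and Scg2 at 225 ± 33.2 CPM in KO and 238 ± 25.1 CPM in WT.

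**Figure D4:**
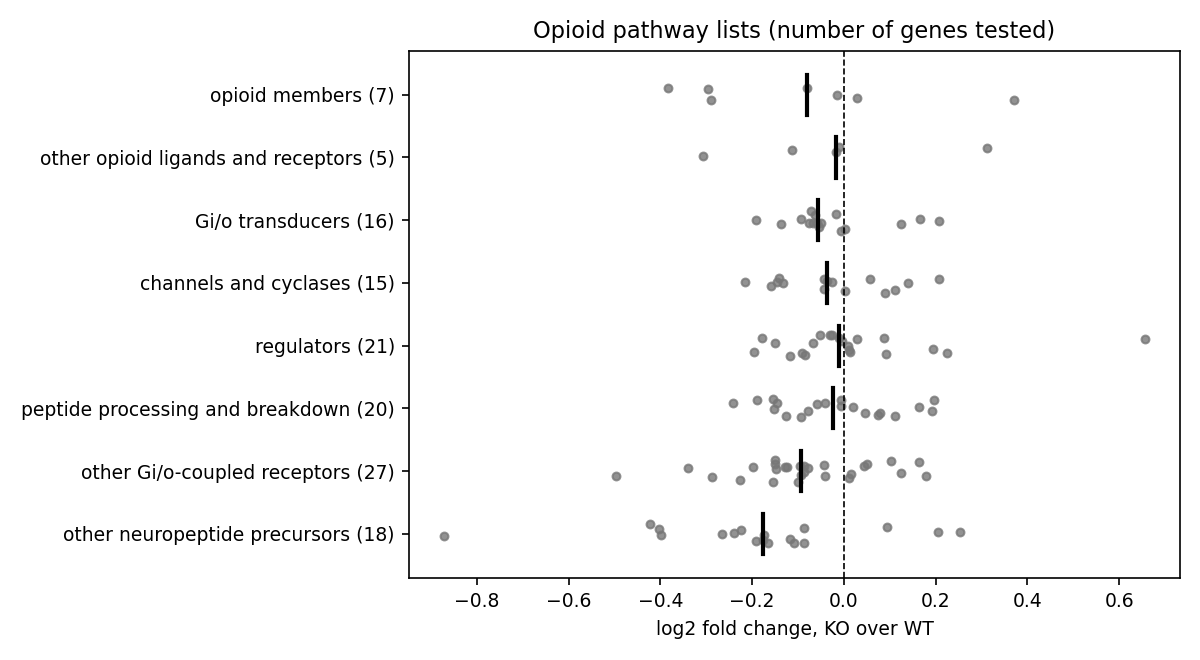
Log2 fold change of KO over WT for every tested gene of each list (points, spread vertically for legibility), with the list median as a thick line and the median of all genes tested as a dashed line. List medians lie between -0.18 for other neuropeptide precursors and -0.010 for regulators.

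The genes whose profile over the 8 libraries was nearest to that of a member were found by the root mean square difference between log2 CPM values, each centred on its own mean. For Oprl1 they were Kctd21 (0.054), Rtn4rl1 (0.055) and Rnf182 (0.059), where the profile of Oprl1 itself had a root mean square size of 0.16. Rtn4rl1, a relative of the Nogo receptor, stood at 75.8, 82.9, 84.3 and 88.5 CPM in KO libraries, against 96.2, 100.5, 91.8 and 100.6 CPM in WT libraries. For Pdyn they were Abcc8 (0.074), Sypl2 (0.087) and Hist2h2be (0.11), against a size of 0.35 for Pdyn itself. Abcc8, the sulphonylurea receptor subunit of ATP-sensitive potassium channels, stood at 33.4, 39.0, 40.1 and 29.4 CPM in KO libraries, against 32.2, 19.8, 30.4 and 32.8 CPM in WT libraries. It shared with Pdyn the low value in WT replicate 2 and the lower value in KO replicate 4 than in the other KO libraries. For Pnoc, Arhgef7 (0.028) and Ensa (0.035) were the nearest, both highest in WT replicate 2. For Penk they were Zfp563 (0.052), Rnf128 (0.052) and Abracl (0.053), all lowest in KO replicate 1. These genes are the nearest with a usual symbol among the 16228 tested. Genes with Gm, Rik or clone-type names or with no symbol were passed over, so closer profiles may exist among those. No test was made of the genes named.

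**Figure D5:**
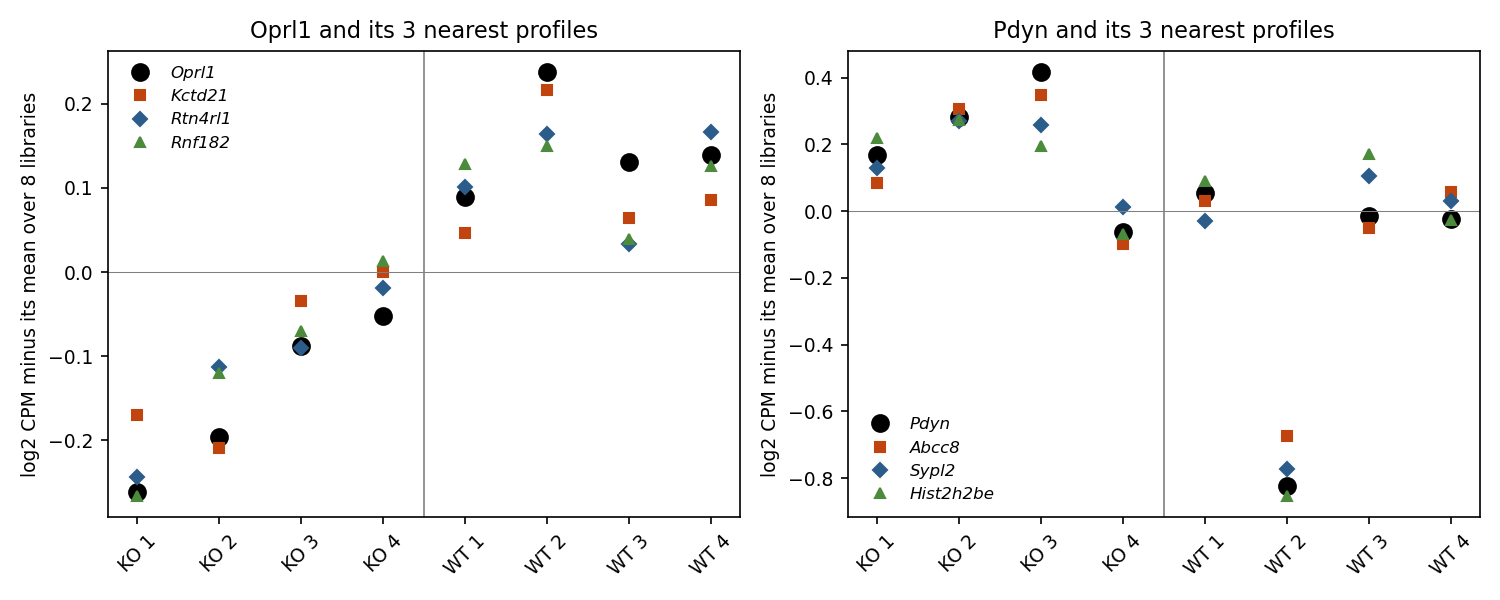
Log2 CPM minus its mean over the 8 libraries for Oprl1 (left) and Pdyn (right). Beside each are the 3 genes with a usual symbol and the nearest profile. KO libraries lie left of the vertical line and WT libraries right of it. In the left panel every KO value of Oprl1 lies below 0 and every WT value above it, and in the right panel WT replicate 2 lies far below the other libraries for all 4 genes.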

How the data were processed

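Poly(A) RNA libraries were made with a stranded kit from 1000 ng of total RNA with 12 PCR cycles, per the labels. The authors deposited raw read counts per Ensembl gene, 1 column per library, with no normalization, per the file headers. The submitters' processing notes name the build mm10 and the demultiplexer bcl2fastq 2.17.1.14. No label or header names an aligner, a counter, an annotation release or the use of strand. Symbols were matched for 31292 of 31417 gene IDs, and positions, exon lengths and coding sequences came from GENCODE M21, of the same build.

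Counts were analysed with edgeR 4.0.16 in R 4.3.3 (filterByExpr, TMM, robust quasi-likelihood F test, Benjamini-Hochberg adjustment over all 16228 genes tested, threshold 0.05). The SE is the log2 fold change divided by the square root of F, as an absolute value. CPM used TMM-scaled totals. Ratios were compared by exact two-sided permutation of log2 ratios. For profiles, log2 CPM values had a prior count of 2 added. Alternatives were DESeq2 1.42.0, limma-voom (limma 3.58.1), other size factors, no filter, no robust estimation, a replicate block, and leaving out each library. The pipeline was tested on simulated data.

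The members and lists were chosen with earlier results of these data known. Named genes are the members, the 3 most abundant of each pathway list, fixed classical partners, neighbours of Oprl1 and the nearest profiles. Outside this rule stand the genes that share exons with Oprm1 and Penk, the pathway genes without overlap, and Lamp5. So do the habenular markers and the striatal markers that averaged under 1 CPM. All of these were named after their values were seen. Protein sequences were not used here. A few items that the naming rule or the peptide search covers are not reported here.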

Additional observations from a re-analysis of the deposited data

Results flagged for a closer look

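The lowest and highest library of each group of 4 was compared with the others by Dixon's ratio at its 95% critical value, over the 7 members, 4 ratios and Dclk3 in both genotypes. Of 24 groups, 4 held a library far from the other 3. Chance flags about 1 in 20 of independent groups. These groups share the same libraries and the ratios are built from the members, so the flagged groups cannot be set against that rate. All 4 were WT groups, and 3 of these were due to WT replicate 2. Pdyn had 8.76 CPM in WT replicate 2, against 15.3 to 16.1 CPM in the other WT libraries. Pnoc had 8.88 CPM in WT replicate 2, against 7.29 to 7.46 CPM. Dclk3 had 39.3 CPM in WT replicate 2, against 20.8 to 23.5 CPM. Penk had 35.4 CPM in WT replicate 1, against 28.7 to 29.6 CPM in the other WT libraries.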

How the results depend on the processing

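The number of members called, and of pathway genes called, was 0 in the main test and in all 15 alternatives. Over all genes, the main count of 0 became 5 with DESeq2, 1 with the replicate block, and 0 to 1 without 1 library. The replicate block called 0 members and gave Oprl1 a log2 fold change of -0.30. No label says whether replicate numbers pair the samples. Over the tested genes, deviations of same-numbered KO and WT libraries correlated at 0.14, 0.12, -0.22 and -0.014 for numbers 1 to 4. Differently numbered libraries correlated at -0.30 (KO replicate 1 with WT replicate 2) to 0.19 (KO replicate 1 with WT replicate 3). The same-numbered values lay within that range. Choroid plexus markers were highest in replicate 2 of both genotypes (3394 CPM in KO, 2174 CPM in WT). Replicate 3 came next (1081 CPM in KO, 880 CPM in WT). These values cannot decide whether same-numbered libraries belong together, which was not tested. Oprl1, Pnoc, Oprm1 and Oprd1 stayed below 0 and Pdyn above 0 in all 15 alternatives. Oprk1, near 0, turned to 0.034 when KO replicate 1 was left out, 0.084 for KO replicate 2, 0.0087 for WT replicate 1 and 0.039 for WT replicate 3, within a range of -0.12 to 0.084 over the fits without 1 library, and was -0.15 by limma-voom. Penk turned to -0.0079 when KO replicate 3 was left out and to -0.023 for KO replicate 4, within a range of -0.023 to 0.13 over these fits. Without 1 library the log2 difference of the ratio of Pdyn to Oprk1 was 0.29 to 0.61, that of Penk to Oprd1 was 0.19 (WT replicate 2) to 0.43 (KO replicate 1) against 0.31, and that of Penk to Oprm1 was 0.26 to 0.64. The ratios of Pdyn to Oprk1 and of Penk to Oprm1 had an exact permutation p of 0.0286 without KO replicate 4. That is the lowest p possible with this library left out. It was the only KO library inside the WT range for both ratios, so nothing is read from this p. With the longest transcript as length, a choice added after seeing the data, levels per kilobase were 19.5 for Oprl1, 21.5 for Penk, 0.593 for Oprm1 and 0.615 for Oprk1, because fewer bases divide the same counts. Low counts limit Oprm1 and Oprk1 most.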

Other observations

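Within the pathway lists, 4 genes outside the naming rule had every KO library below every WT library, and they are named here after their values were seen. Gnaz, a Gi-family alpha subunit found mainly in neurons, stood at 66.3 ± 1.91 CPM in KO and 75.8 ± 2.64 CPM in WT (SD, n = 4 each). Ackr3, an atypical receptor that takes up chemokines and opioid peptides, stood at 14.3 ± 1.41 CPM in KO and 17.7 ± 3.68 CPM in WT. Thop1, a peptidase that cleaves short neuropeptides, stood at 40.6 ± 2.03 CPM in KO and 44.9 ± 2.25 CPM in WT. The edgeR adjusted p was 0.796 for each of these. Gnb2, a beta subunit, stood at 199 ± 2.28 CPM in KO and 208 ± 1.602 CPM in WT (edgeR adjusted p = 0.824). Of all genes tested, 1.92% had KO below WT in every library and 1.88% had KO above WT in every library. The pathway lists held 5, 16, 15, 21, 20, 27 and 18 tested genes. Their genes with KO above WT in every library are not given here, so nothing is read from the 4.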
